A study of Homo sapiens with 32 samples.

Results

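SKNO-1 is a human acute myeloid leukaemia cell line that carries the RUNX1-RUNX1T1 fusion of the translocation t(8;21) and is kept on GM-CSF. RNA sequencing libraries of SKNO-1 cultures given an inhibitor of the histone demethylase KDM1A for 72 h were compared here with their control libraries. The 8 libraries were taken by title, those of SKNO-1 at 72 h, out of 32 in a study of 2 t(8;21) lines (SKNO-1 and Kasumi-1), 2 times (24 and 72 h) and 4 agents with 2 biological replicates each. One inhibitor group received 1 µM RN-1, which acts irreversibly, and the other 1 µM GSK690, which acts reversibly. The control groups received the vehicle DMSO at 0.1% or 1 µM GSK690*, an isomer of GSK690 called inactive in the series' design text. The medium of all 8 cultures was RPMI, 10% fetal calf serum and 10 ng/mL GM-CSF, and each line is a single clonal leukaemia in culture, not a set of patients. For SKNO-1 the library titles give 72 h where the treatment protocol gives 4 days. The sample table of the authors swaps the lines in the 16 libraries of 72 h, so groups follow the titles. Nothing in the labels ties a replicate number to a day or culture beyond calling the replicates biological. The p-values thus measure the spread between libraries, pooled over the 16 groups of the study and not taken from these 8 alone.

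KDM1A, also called LSD1, removes methyl groups from lysine 4 of histone H3 and works in a complex with the scaffold RCOR1 and the deacetylases HDAC1 and HDAC2. In blood cells the zinc finger repressors GFI1 and GFI1B bring this complex to their target genes through a short SNAG peptide at their N terminus that binds KDM1A. Both repressors bind DNA that holds the letters AATC, and GFI1B is known to bind its own promoter. Inhibitors of KDM1A are known to raise markers of myeloid maturation such as CD86 and CD11b (ITGAM) in acute myeloid leukaemia cells.

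The libraries were alike in gross measures. FPKM, fragments scaled to gene length and to the sequenced total, summed over genes to 363863 to 395945 per library, and 10571 to 10970 genes reached 1 FPKM. Read counts were not used here, so absolute depth is unknown. The low FPKM values of a library fall on steps, and their spacing gave a depth relative to DMSO replicate 1 of 0.992 to 1.27. Between the 2 replicates of each group, Pearson's r over genes was 0.988 to 0.991. In the other groups of the study it was 0.986 to 0.996 (SKNO-1, 24 h), 0.987 to 0.995 (Kasumi-1, 72 h) and 0.994 to 0.996 (Kasumi-1, 24 h). Each library had an r of 0.978 to 0.986 with the 24 h libraries of SKNO-1 and of 0.863 to 0.870 with those of Kasumi-1. RUNX1T1, the fusion partner of RUNX1, stood at 27.6 to 26.8 FPKM in controls and inhibitors, and the myeloid enzyme MPO at 1717 to 1543 FPKM. The names of DMSO replicate 1 and RN-1 replicate 1 begin with CM and those of the other 6 libraries with CP, and the labels do not say what the prefixes mean.

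Of 23073 genes, 11102 had at least 1 FPKM in at least 2 of the 8 libraries, and 133 of these did so without any control library at 1 FPKM. The question is which genes change when KDM1A is inhibited. Changes are log2 differences of FPKM + 1, tested with limma against the spread within the 16 groups of the study, with p adjusted by Benjamini and Hochberg over all genes tested. "Rose" and "fell" mean an adjusted p under 0.05. On this scale the change of genes near 0 FPKM is understated. FPKM are means ± SD over 4 libraries a side, log2 changes carry their SE, and gene positions are on hg19.

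Large changes were almost all increases. Among 11101 tested genes, 796 (7.17%) rose while 500 (4.50%) fell. A change of 2-fold or more was seen in 122 that rose and in 2 that fell. The 4 inhibitor libraries all lay above the 4 controls in 941 genes (8.48%) and all below in 786 (7.08%). Genes that rose were low in the controls, with a median of 4.93 FPKM, where all tested genes had 15.03 FPKM and the genes that fell 22.8 FPKM. Among the 122 genes, 42 had a control mean under 1 FPKM, and 31 passed the filter through the inhibitor libraries alone, so their rise was partly fixed by the filter. These 31 include GFI1B, CLEC4A, GZMA, CD86, ITGAM, CD34 and TNF, and the p-values given for them below share this limit. With the replicate number as a block 2673 genes passed, 1332 up and 1341 down. A fit on the 8 libraries alone passed 426, of which 362 rose and 64 fell. Fewer genes also passed without DMSO replicate 1 and in the fit called CP libraries alone below. That fit left out the 2 SKNO-1 libraries of 72 h named CM, so DMSO and RN-1 kept 1 library each. Its spread also drew on the other groups of the study. Scaling by the median of ratios left 71.3% of the passing genes rising in place of 61.4%.

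**Figure D1:**
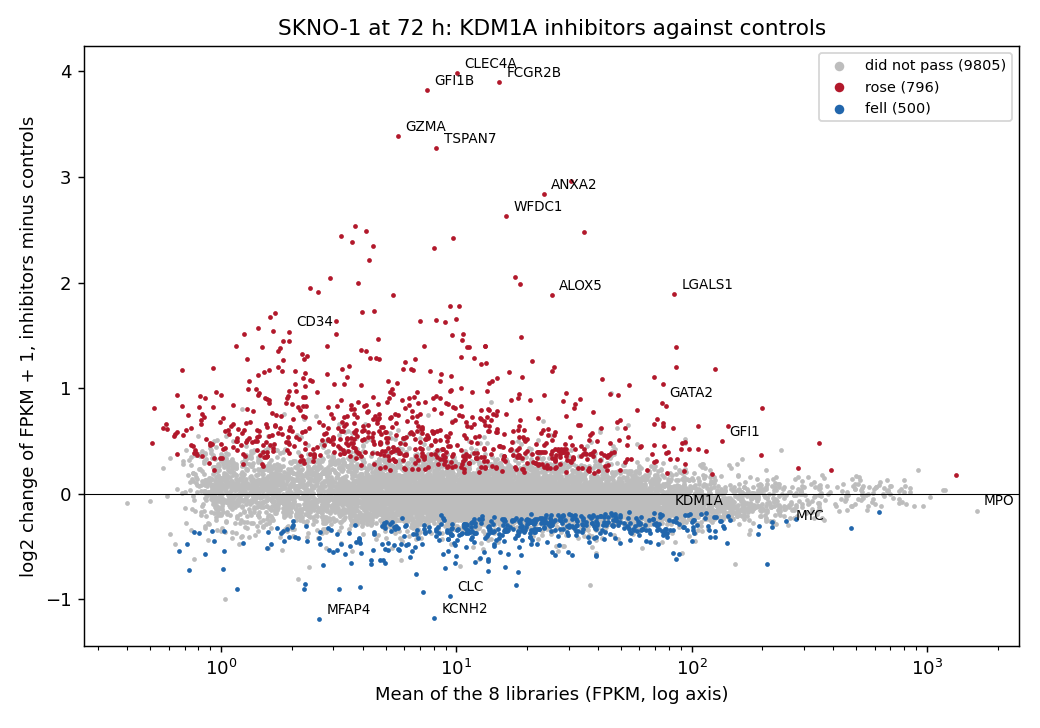
Log2 change of FPKM + 1 between the 4 inhibitor and 4 control libraries (vertical axis) against the mean FPKM of the 8 libraries (horizontal log axis), 1 point per gene tested. Red points rose (796), blue points fell (500) and grey points did not pass; the points above a change of 2 are all red, while no blue point lies below -1.19.

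The target and the repressors that recruit it came first. KDM1A (chromosome 1, 23345940 to 23410182) has no deposited value in GSK690* replicate 2 and RN-1 replicate 1, and the fit used the other 6 libraries. It stood at 82.2 and 80.4 FPKM with DMSO, 85.1 FPKM with GSK690*, 70.8 FPKM with RN-1 and 79.8 and 76.1 FPKM with GSK690, and the difference did not pass (log2 -0.16 ± 0.081, adjusted p = 0.242). Inhibition of the enzyme need not change its own transcript, so this value does not check the treatment. GFI1B (chromosome 9, 135820931 to 135867083), the repressor of the erythroid and megakaryocytic lineages, stood at 0 and 0.0208 FPKM with DMSO, 0.239 and 0.107 FPKM with GSK690*, 16.2 and 10.2 FPKM with RN-1 and 21.6 and 11.7 FPKM with GSK690. All inhibitor libraries were at 10.2 FPKM or more while the controls were near 0, and the gene rose from 0.0917 ± 0.108 to 14.9 ± 5.11 FPKM (log2 3.82 ± 0.44, adjusted p = 3.02e-06). Its paralog GFI1 (chromosome 1, 92940318 to 92952433), which acts in granulocytic cells, was already abundant and stood at 103 and 112 FPKM with DMSO, 117 and 115 FPKM with GSK690*, 157 and 156 FPKM with RN-1 and 167 and 153 FPKM with GSK690. The sides did not overlap, and GFI1 rose by a smaller step (log2 0.50 ± 0.066, adjusted p = 1.76e-05).

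Few other parts of the complex passed the test. Of the 19 genes in the list of the complex and its recruiters 17 were tested, and 2 rose (the repressor pair) and 1 fell (median log2 -0.04, where all genes tested had -0.03). The gene that fell was HDAC1, the deacetylase subunit, from 92.5 ± 4.098 to 78.9 ± 2.15 FPKM (log2 -0.23 ± 0.053, adjusted p = 0.00697). HDAC1 did not pass on the 8 libraries alone (0.145), with the CP libraries alone (0.0700) or against GSK690* alone (0.0948), by limma's adjusted p. RCOR1 had 24.9 to 23.9 FPKM (log2 -0.05, adjusted p = 0.712). Among 18 tested histone demethylases other than KDM1A 0 passed in limma, and with the replicate block 3 rose and 1 fell.

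Beside GFI1B, CLEC4A and FCGR2B had the highest changes. CLEC4A (chromosome 12, 8276227 to 8291203), a C-type lectin with an inhibitory tail found on monocytes and dendritic cells, stood at 0.368 and 0.306 FPKM with DMSO, 0.151 and 0.301 FPKM with GSK690*, 15.7 and 14.6 FPKM with RN-1 and 22.1 and 26.7 FPKM with GSK690. The controls were all at 0.368 FPKM or less and the GSK690 libraries the highest, and the gene rose by log2 3.98 ± 0.28, adjusted p = 1.23e-09. FCGR2B (chromosome 1, 161551100 to 161648444), the Fc receptor that dampens signals of bound IgG, stood at 0.878 and 1.01 FPKM with DMSO, 0.974 and 1.17 FPKM with GSK690*, 21.2 and 31.2 FPKM with RN-1 and 28.7 and 36.5 FPKM with GSK690. The lowest inhibitor library was far above the highest control (log2 3.897 ± 0.24, adjusted p = 1.78e-10).

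GZMA (chromosome 5, 54398475 to 54406080), a serine protease of the granules of cytotoxic lymphocytes, stood at 0.0450 and 0.106 FPKM with DMSO, 0.157 and 0.272 FPKM with GSK690*, 12.2 and 7.81 FPKM with RN-1 and 13.5 and 10.9 FPKM with GSK690. It rose from near 0 in both inhibitor groups (log2 3.38 ± 0.14, adjusted p = 2.29e-13). Of the other T and NK cell markers in the list, 3 were tested and 0 passed, and GZMB, PRF1, CD3E and the others stayed under the filter. In bulk libraries such as these, more cells of a type and more RNA per cell cannot be told apart. ANXA2 (chromosome 15, 60639332 to 60695082), a membrane-binding annexin, stood at 4.497 and 3.94 FPKM with DMSO, 6.48 and 5.296 FPKM with GSK690*, 38.01 and 42.3 FPKM with RN-1 and 41.2 and 45.9 FPKM with GSK690. Both sides were well apart (log2 2.84 ± 0.13, adjusted p = 2.05e-12). The tetraspanin TSPAN7 rose by log2 3.27 and WFDC1, a secreted protein with a WAP domain, by 2.63, from 3.89 ± 1.47 to 28.6 ± 5.41 FPKM. MS4A4A and LY96, a macrophage membrane protein and the partner of TLR4, rose by 2.53 and 2.49, both from under 1 FPKM. SCPEP1, a serine carboxypeptidase, went from 10.1 ± 2.57 to 60.02 ± 9.18 FPKM (log2 2.48 ± 0.18, adjusted p = 1.71e-09). GPR84, which senses medium-chain fatty acids, rose by log2 2.44, GLIPR1 by 2.42, RGMB, a bone morphogenetic protein co-receptor, by 2.35 and AIM1 by 2.38.

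**Figure D2:**
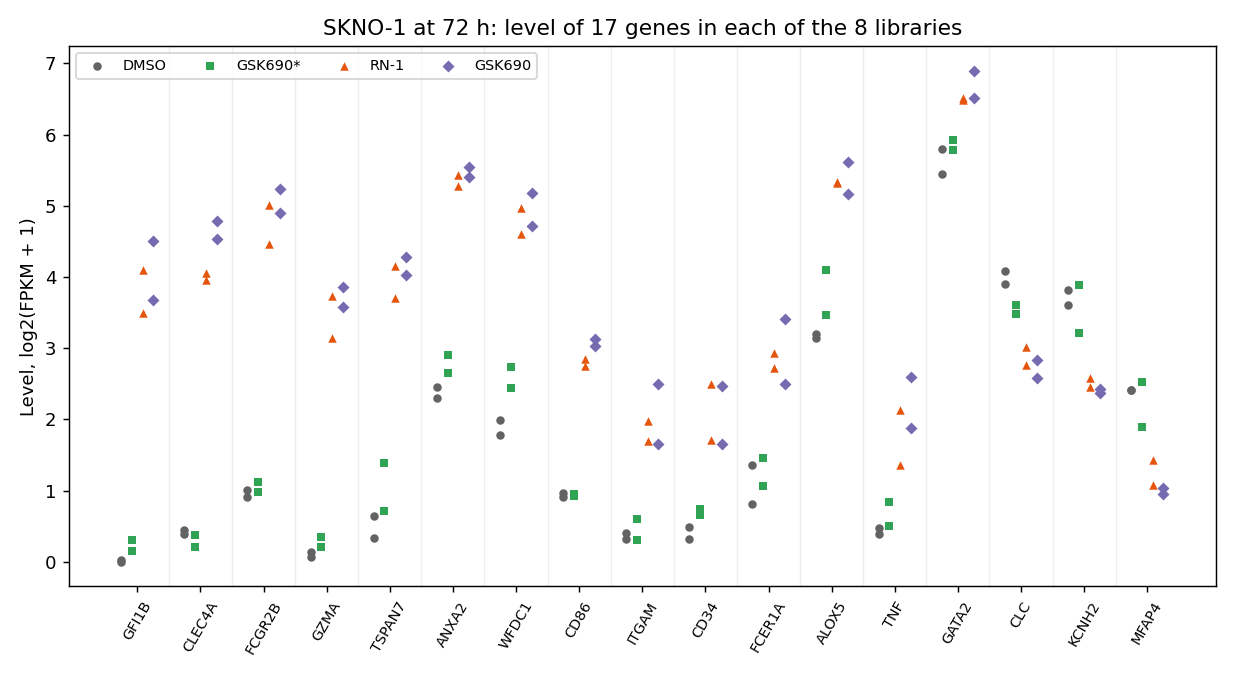
Level of 17 genes as log2(FPKM + 1) (vertical axis) in each of the 8 libraries, 1 point per library, with DMSO in grey, GSK690* in green, RN-1 in orange and GSK690 in purple. For each gene the 4 inhibitor points lie on one side of the 4 control points, above them for the 14 genes on the left (GFI1B to GATA2) and below them for the 3 on the right (CLC to MFAP4).

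The start regions of the leading genes were read for the letters to which GFI1 and GFI1B bind. The 4 genes with the highest change and a promoter in the RefSeq table (build GRCh38.p14, 250 bases before and 50 after each start, 5′ to 3′ on the gene's strand) are FCGR2B and GFI1B, with 2 starts each, GZMA and ANXA2. They are shown because they span the strongest responses; capitals mark AATC, or GATT where it lies on the other strand.
FCGR2B, chr1:161646993-161647292, plus strand: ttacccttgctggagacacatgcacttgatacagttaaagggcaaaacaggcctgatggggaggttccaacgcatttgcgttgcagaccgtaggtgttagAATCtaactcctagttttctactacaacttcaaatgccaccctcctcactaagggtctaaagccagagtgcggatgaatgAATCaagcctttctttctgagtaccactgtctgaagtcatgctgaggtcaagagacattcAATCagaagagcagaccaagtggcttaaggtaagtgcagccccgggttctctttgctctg
FCGR2B, chr1:161662893-161663192, plus strand: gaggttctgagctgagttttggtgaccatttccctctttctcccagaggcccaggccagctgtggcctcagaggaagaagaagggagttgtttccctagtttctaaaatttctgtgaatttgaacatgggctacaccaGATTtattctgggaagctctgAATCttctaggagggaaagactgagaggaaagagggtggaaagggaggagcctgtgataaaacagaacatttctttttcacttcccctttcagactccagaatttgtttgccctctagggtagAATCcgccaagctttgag
GFI1B, chr9:132945281-132945580, plus strand: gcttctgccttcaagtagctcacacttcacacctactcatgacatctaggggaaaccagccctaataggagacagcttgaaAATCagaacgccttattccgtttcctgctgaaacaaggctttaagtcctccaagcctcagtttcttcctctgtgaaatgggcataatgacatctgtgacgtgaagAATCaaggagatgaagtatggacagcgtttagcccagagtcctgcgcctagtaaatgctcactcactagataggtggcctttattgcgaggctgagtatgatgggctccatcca
GFI1B, chr9:132978444-132978743, plus strand: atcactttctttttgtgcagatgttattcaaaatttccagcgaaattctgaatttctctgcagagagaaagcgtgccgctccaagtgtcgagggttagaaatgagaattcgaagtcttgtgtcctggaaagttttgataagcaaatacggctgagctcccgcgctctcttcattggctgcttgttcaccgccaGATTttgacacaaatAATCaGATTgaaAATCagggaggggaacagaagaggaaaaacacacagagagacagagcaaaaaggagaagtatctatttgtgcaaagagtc
GZMA, chr5:55102396-55102695, plus strand: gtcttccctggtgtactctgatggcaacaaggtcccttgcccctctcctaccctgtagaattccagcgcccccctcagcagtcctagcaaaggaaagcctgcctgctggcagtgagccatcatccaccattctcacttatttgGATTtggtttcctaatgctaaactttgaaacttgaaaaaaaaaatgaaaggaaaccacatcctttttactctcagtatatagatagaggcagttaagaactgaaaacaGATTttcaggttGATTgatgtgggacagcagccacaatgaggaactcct
ANXA2, chr15:60397937-60398236, minus strand: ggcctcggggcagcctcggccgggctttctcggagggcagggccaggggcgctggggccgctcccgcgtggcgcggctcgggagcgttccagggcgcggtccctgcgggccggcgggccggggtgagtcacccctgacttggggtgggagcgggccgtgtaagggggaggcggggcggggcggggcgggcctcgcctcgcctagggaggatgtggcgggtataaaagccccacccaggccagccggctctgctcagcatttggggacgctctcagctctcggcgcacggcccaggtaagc

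The second GFI1B start holds 4 such matches, 3 of them clustered within a short stretch, and both GFI1B starts hold the longer AAATCA or its reverse complement. FCGR2B has 3 matches at each start and GZMA 3, while ANXA2, whose window is 76.0% G and C, has 0. Over all genes, 8442 of the 11101 tested were matched to a promoter, and 1 start per symbol was searched on both strands. AATC is common: 66.8% of the promoters of genes that rose held it, 61.2% of those tested, 55.6% of those that fell and 69.6% of all promoters in the table. AAATCA, which contains AATC, was in 11.98% of 576 promoters of genes that rose, 16.2% of the 74 that rose by 2-fold or more, 6.36% of 8434 tested, 5.22% of 383 that fell and 13.3% of all. The GAGGAAG core of SPI1 sites was in 18.4% of promoters that rose, 14.7% of those tested and 13.4% of all, TGANTCA of AP-1 in 7.12%, 4.17% and 7.76%, and TGTGGT of RUNX in 8.68%, 9.22% and 13.1%. The palindrome TTGCGCAA of CEBP factors was in 0 of the promoters that rose, 0.249% of those tested and 0.128% of all. In the 74 promoters that rose by 2-fold or more, AATC was in 77.0%, GAGGAAG in 17.6%, TGANTCA in 13.5% and TGTGGT in 10.8%. AAATCA was thus not the only motif with a higher share there than among those tested. The median content of G and C was 64.00% in promoters that rose, 57.3% in those that rose by 2-fold or more, 65.3% in those tested and 66.00% in those that fell, and its part in these shares was not tested.

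Fc receptors showed the highest median of the 35 lists. 14 of 20 genes for Fc receptors and their signalling chains could be tested, of which 9 rose, 1 fell and 4 did not pass (median log2 0.87), against 7.17% rising and 4.50% falling among all genes. The activating receptor FCGR1A rose from 16.05 ± 3.16 to 31.2 ± 2.04 FPKM (log2 0.94) and FCER1A, the IgE-binding chain, by 1.72. FCGR2C rose by 2.96, but its sequence is nearly the same as that of FCGR2B and FCGR2A in parts, so reads may be counted under either. The member that fell was the adaptor TYROBP (log2 -0.38, adjusted p = 0.0489). TYROBP did not pass without DMSO replicate 1, RN-1 replicate 1, GSK690* replicate 1, GSK690 replicate 1, DMSO replicate 2, RN-1 replicate 2 or GSK690 replicate 2 (limma adjusted p = 0.0699 to 0.229). Of C-type lectins and inhibitory receptors 5 of 14 rose and 2 fell (median log2 0.25), 4 of those tested without a control library at 1 FPKM, and beside CLEC4A the activating receptor LILRA2 rose from 3.75 ± 0.925 to 15.1 ± 1.07 FPKM (log2 1.78).

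Monocyte and macrophage markers rose in part. 16 of 30 markers could be tested, of which 10 rose, 1 fell and 5 did not pass (median log2 0.49). Among all genes 7.17% rose and 4.50% fell. Of the markers tested, 6 had no control library at 1 FPKM. CD86 (chromosome 3, 121774212 to 121839983), a ligand that costimulates T cells, stood at 0.963 and 0.884 FPKM with DMSO, 0.902 and 0.931 FPKM with GSK690*, 6.17 and 5.73 FPKM with RN-1 and 7.15 and 7.796 FPKM with GSK690. Every control was under 1 FPKM (log2 1.998 ± 0.10, adjusted p = 3.50e-12). ITGAM (chromosome 16, 31271310 to 31344213), the CD11b chain of a leukocyte integrin, stood at 0.244 and 0.325 FPKM with DMSO, 0.519 and 0.238 FPKM with GSK690*, 2.93 and 2.23 FPKM with RN-1 and 4.63 and 2.14 FPKM with GSK690. The sides did not overlap and the level stayed low (log2 1.54 ± 0.21, adjusted p = 3.06e-05). LYZ, the lysozyme of monocytes and granulocytes, rose from 47.4 ± 9.03 to 125 ± 18.6 FPKM (log2 1.39) and the protease CTSS from 37.2 ± 2.11 to 52.4 ± 3.23 FPKM (log2 0.48). The monocyte and macrophage markers CD14, CD163, MRC1, VCAN and FCN1 were among the 14 that did not reach the filter.

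Among neutrophil genes 1 passed, and it fell. 10 of 28 markers of neutrophils and their granules could be tested, of which 0 rose, 1 fell and 9 did not pass (median log2 -0.08), and with the replicate block 1 rose and 4 fell. The protease PRTN3 had 47.1 to 26.6 FPKM and ELANE, neutrophil elastase, 186 to 120.3 FPKM (log2 -0.86 and -0.67, limma adjusted p = 0.131 and 0.130). With the replicate block both passed (limma adjusted p = 0.00276 and 0.0293), and ELANE also passed without RN-1 replicate 2 (0.0495).

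Mast cell, basophil and eosinophil genes changed in both directions. 15 of 25 such markers could be tested, of which 6 rose, 2 fell and 7 did not pass (median log2 0.09). The shares over all genes were 7.17% rising and 4.50% falling. Under the block 7 rose and 6 fell, and with the CP libraries alone 3 rose and 0 fell. FCER1A (chromosome 1, 159259503 to 159278014) stood at 0.756 and 1.56 FPKM with DMSO, 1.102 and 1.75 FPKM with GSK690*, 5.63 and 6.66 FPKM with RN-1 and 4.67 and 9.64 FPKM with GSK690. All inhibitor libraries were above all controls (log2 1.72 ± 0.28, adjusted p = 2.00e-04). The mast cell protease CPA3 rose from 12.4 ± 5.64 to 29.6 ± 7.87 FPKM, the tryptases TPSB2 and TPSAB1 by log2 1.18 and 0.92, and IL5RA, an interleukin 5 receptor chain of eosinophils and basophils, by 0.45; TPSB2 and TPSAB1 are nearly the same in sequence, so their reads may be shared. CLC (chromosome 19, 40221889 to 40228668), which forms the Charcot-Leyden crystals of eosinophils, stood at 16.03 and 13.98 FPKM with DMSO, 11.2 and 10.2 FPKM with GSK690*, 5.77 and 7.07 FPKM with RN-1 and 5.003 and 6.14 FPKM with GSK690. It was lower in each inhibitor library than in each control (log2 -0.97 ± 0.23, adjusted p = 0.00711). CLC did not pass with the CP libraries alone (0.0953) or against GSK690* alone (0.150), by limma's adjusted p. Eosinophil peroxidase, EPX, changed by log2 -0.67 (adjusted p = 0.0319). EPX did not pass without DMSO replicate 1, RN-1 replicate 1, GSK690* replicate 1, GSK690 replicate 1, RN-1 replicate 2 or GSK690 replicate 2 (limma adjusted p = 0.0614 to 0.111). CPA3 did not pass without DMSO replicate 1 or GSK690* replicate 1, with the CP libraries alone, or against GSK690* alone (limma adjusted p = 0.147 for the last). The eosinophil granule genes PRG2, RNASE2 and RNASE3 did not pass (log2 -0.51, -0.50 and -0.41). IL5RA did not pass with a pseudocount of 0.1 (0.237), on the 8 libraries alone (0.0644) or against GSK690* alone (0.117), by limma's adjusted p. TPSB2 did not pass with the CP libraries alone (0.0539), by limma's adjusted p.

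Some progenitor genes rose. 15 of 26 stem and progenitor genes could be tested, of which 4 rose, 0 fell and 11 did not pass (median log2 0.05). Over all genes 7.17% rose and 4.50% fell. The replicate block gave 4 that rose and 4 that fell. CD34 (chromosome 1, 208057593 to 208084747), the surface marker of blood progenitors, stood at 0.405 and 0.250 FPKM with DMSO, 0.573 and 0.680 FPKM with GSK690*, 4.64 and 2.28 FPKM with RN-1 and 4.55 and 2.16 FPKM with GSK690. It rose in both inhibitors (log2 1.53 ± 0.22, adjusted p = 3.40e-05), and replicate 1 was higher than replicate 2 with each of them. GATA2 (chromosome 3, 128198269 to 128212028), a transcription factor of progenitors and mast cells, stood at 42.7 and 54.7 FPKM with DMSO, 60.01 and 54.3 FPKM with GSK690*, 90.1 and 88.5 FPKM with RN-1 and 119 and 90.9 FPKM with GSK690. The groups did not overlap (log2 0.86 ± 0.20, adjusted p = 0.00631). GATA2 did not pass with the CP libraries alone (0.0863) or against GSK690* alone (0.0950), by limma's adjusted p. The ETS factor ERG rose from 37.1 ± 5.35 to 59.6 ± 3.17 FPKM and SOX4 by log2 0.37. SOX4 did not pass against GSK690* alone (0.0599), by limma's adjusted p. KIT, the stem cell factor receptor, had 89.9 to 73.4 FPKM (log2 -0.28, limma adjusted p = 0.0832). It passed with the replicate block (limma adjusted p = 0.0203), without GSK690* replicate 1 (0.0192) and without GSK690 replicate 2 (0.0456).

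Among transcription factors, 30 of 44 genes of the myeloid and blood list could be tested. Of these 7 rose, 1 fell and 22 did not pass (median log2 0.06), where 7.17% of all genes rose and 4.50% fell. ID3, an inhibitor of basic helix-loop-helix factors, rose from 2.09 ± 0.911 to 13.98 ± 1.93 FPKM (log2 2.32 ± 0.20, adjusted p = 3.35e-08). SPI1, the PU.1 factor of myeloid cells, had 117 to 105 FPKM (log2 -0.14, adjusted p = 0.440) and RUNX1 60.1 to 61.1 FPKM (log2 0.03, adjusted p = 0.873). CEBPA, a granulocytic factor, stood at 0.466 and 0.853 FPKM with DMSO, 1.42 and 0.619 FPKM with GSK690*, 0.833 and 1.54 FPKM with RN-1 and 2.55 and 0.322 FPKM with GSK690. Its sides overlapped and it did not pass (log2 0.26, adjusted p = 0.654). CEBPD fell from 4.58 ± 0.434 to 2.54 ± 0.281 FPKM (log2 -0.66, adjusted p = 0.00408). CEBPD did not pass with the CP libraries alone (0.0526), by limma's adjusted p. CEBPE had 33.5 to 23.5 FPKM (limma adjusted p = 0.0525); it passed with the replicate block (0.0265), with the prefix term (0.0126) and without DMSO replicate 1, RN-1 replicate 2 or GSK690* replicate 2 (adjusted p = 0.0103 to 0.0446). In the list of genes high in t(8;21) leukaemia 2 of 11 rose and 0 fell (median log2 0.01), with 3 rose and 2 fell under the block, and RUNX1T1 did not pass (log2 -0.03, adjusted p = 0.886).

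Of the cytokine and NF-kB genes tested, more rose than fell. 19 of 32 genes on this list could be tested, of which 12 rose, 1 fell and 6 did not pass (median log2 0.74). Among all genes 7.17% rose and 4.50% fell. With the CP libraries alone 8 of the list rose and 0 fell. TNF (chromosome 6, 31543343 to 31546113), the inflammatory cytokine, stood at 0.312 and 0.396 FPKM with DMSO, 0.798 and 0.411 FPKM with GSK690*, 3.41 and 1.57 FPKM with RN-1 and 5.06 and 2.69 FPKM with GSK690. Its lowest inhibitor library was above its highest control (log2 1.44 ± 0.29, adjusted p = 0.00186). NFKB2 (chromosome 10, 104153866 to 104162281), the precursor of the p52 subunit, stood at 5.18 and 7.65 FPKM with DMSO, 6.597 and 7.82 FPKM with GSK690*, 17.7 and 15.9 FPKM with RN-1 and 24.7 and 20.2 FPKM with GSK690. Here too GSK690 replicate 1 was the highest (log2 1.397 ± 0.23, adjusted p = 2.58e-04). The cytokine IL1B rose from 15.6 ± 4.29 to 36.6 ± 6.91 FPKM, and the feedback inhibitors TNFAIP3 and NFKBIA by log2 1.05 and 0.74. IL18 changed by log2 -0.36 (adjusted p = 0.0491). IL18 did not pass without DMSO replicate 1, RN-1 replicate 1, GSK690 replicate 1, DMSO replicate 2, GSK690* replicate 2 or GSK690 replicate 2 (limma adjusted p = 0.0694 to 0.163).

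Antigen presentation genes that passed the test all rose. In the class II list 12 of 18 genes could be tested, of which 3 rose, 0 fell and 9 did not pass (median log2 0.61). The shares over all genes were 7.17% rising and 4.50% falling. With the replicate block 10 of the list rose and 0 fell, and with the CP libraries alone 1 rose and 0 fell. HLA-DRB5, a class II beta chain, went from 3.36 ± 1.39 to 6.78 ± 1.81 FPKM (log2 0.87, adjusted p = 0.0405), and its reads may be shared with HLA-DRB1. HLA-DRB5 did not pass without DMSO replicate 1, GSK690* replicate 1, GSK690 replicate 1, RN-1 replicate 2 or GSK690 replicate 2 (limma adjusted p = 0.0534 to 0.220). RFX5, which binds class II promoters, rose from 45.8 ± 2.28 to 53.7 ± 1.06 FPKM (log2 0.23). RFX5 did not pass without GSK690* replicate 1 (limma adjusted p = 0.0508). The class II chaperone CD74 had 209 to 268 FPKM and the class II activator CIITA 5.97 to 7.63 FPKM (adjusted p = 0.279 and 0.256), and both passed with the replicate block (limma adjusted p = 0.0251 and 0.0333) and without DMSO replicate 2 (0.0464 and 0.0370).

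In the class I list 5 of 22 rose and 0 fell (median log2 0.18), with 9 rose and 0 fell under the block, and with the CP libraries alone 0 rose and 0 fell. HLA-E rose from 58.03 ± 9.28 to 80.1 ± 8.99 FPKM and PSMB9, a subunit of the immunoproteasome, by log2 0.61. Neither passed against GSK690* alone (limma adjusted p = 0.2256 and 0.2185) or on the 8 libraries alone (0.0976 and 0.0645). HLA-E did not pass without DMSO replicate 1, GSK690* replicate 1, RN-1 replicate 2 or GSK690 replicate 2 (limma adjusted p = 0.0956 to 0.162). PSMB9 did not pass without DMSO replicate 1, RN-1 replicate 1, GSK690* replicate 1 or GSK690 replicate 1 (limma adjusted p = 0.0611 to 0.103). Of interferon-stimulated genes 5 of 30 rose and 0 fell (median log2 0.29), and with the block 16 rose and 0 fell. Both lists stand against 7.17% rising and 4.50% falling among all genes. With the block, 1332 of all 11101 genes rose and 1341 fell. BST2, which tethers viruses to the membrane, rose from 4.48 ± 1.89 to 10.9 ± 2.54 FPKM (log2 1.16 ± 0.22, adjusted p = 0.00118) and the GTPase GBP2 from 5.08 ± 1.07 to 12.2 ± 1.11 FPKM (log2 1.13 ± 0.11, adjusted p = 2.20e-07).

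Membrane-binding, adhesion and lysosomal proteins held further increases. Of annexins, S100 proteins and galectins 5 of 16 rose and 0 fell (median log2 0.27), and 8 rose and 3 fell with the block. LGALS1 (chromosome 22, 38071614 to 38075813), a galectin that binds cell surface sugars, stood at 28.9 and 30.1 FPKM with DMSO, 54.5 and 30.3 FPKM with GSK690*, 132 and 114 FPKM with RN-1 and 167 and 118 FPKM with GSK690. GSK690* replicate 1 was the highest control, and the sides did not overlap (log2 1.89 ± 0.22, adjusted p = 2.86e-06). The calcium-binding S100A11 rose from 19.7 ± 3.27 to 36.9 ± 5.02 FPKM (log2 0.87). Of integrins and their partners 7 of 18 rose and 0 fell (median log2 0.14), against 7.17% rising among all genes, and with the CP libraries alone 4 rose and 0 fell. Of the 18 tested, 2 (ITGAM among them) had no control library at 1 FPKM. In the lysosome list 6 of 28 rose and 0 fell (median log2 0.02), and 2 rose and 0 fell with the CP libraries alone, with the protease CTSH at 30.6 ± 3.801 to 59.8 ± 5.75 FPKM and the lysosomal protein GRN at 83.9 ± 17.3 to 129.8 ± 9.602 FPKM (log2 0.95 and 0.65). GRN did not pass with the CP libraries alone (0.0532) or against GSK690* alone (0.117), by limma's adjusted p.

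Leukotriene synthesis changed at single steps. Of 10 tested genes of leukotriene and prostaglandin synthesis 2 rose and 1 fell (median log2 -0.05). ALOX5 (chromosome 10, 45869660 to 45941561), the lipoxygenase that starts the pathway, stood at 8.203 and 7.88 FPKM with DMSO, 16.1 and 10.1 FPKM with GSK690*, 39.5 and 38.8 FPKM with RN-1 and 48.1 and 35.02 FPKM with GSK690. Both inhibitors were well above both controls (log2 1.88 ± 0.22, adjusted p = 2.61e-06). LTA4H, which makes leukotriene B4, rose from 65.7 ± 12.3 to 101 ± 16.2 FPKM. LTA4H did not pass on the 8 libraries alone (0.0677), by limma's adjusted p. The phospholipase PLA2G4A, which frees arachidonic acid, fell from 10.98 ± 0.672 to 8.18 ± 0.741 FPKM (log2 -0.39). PLA2G4A did not pass without RN-1 replicate 2 (limma adjusted p = 0.0529). Of clustered histone genes, 14 of 26 genes could be tested, of which 7 rose, 0 fell and 7 did not pass (median log2 0.54). The shares over all genes were 7.17% rising and 4.50% falling. With the block 11 of the list rose and 0 fell. HIST1H2BD and HIST1H2AC were at log2 1.03 and 0.97. HIST1H2AC did not pass against GSK690* alone (0.0905), by limma's adjusted p. Most replication-dependent histone transcripts lack a poly(A) tail, and how the RNA was selected is not given in the sources used here.

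**Figure D3:**
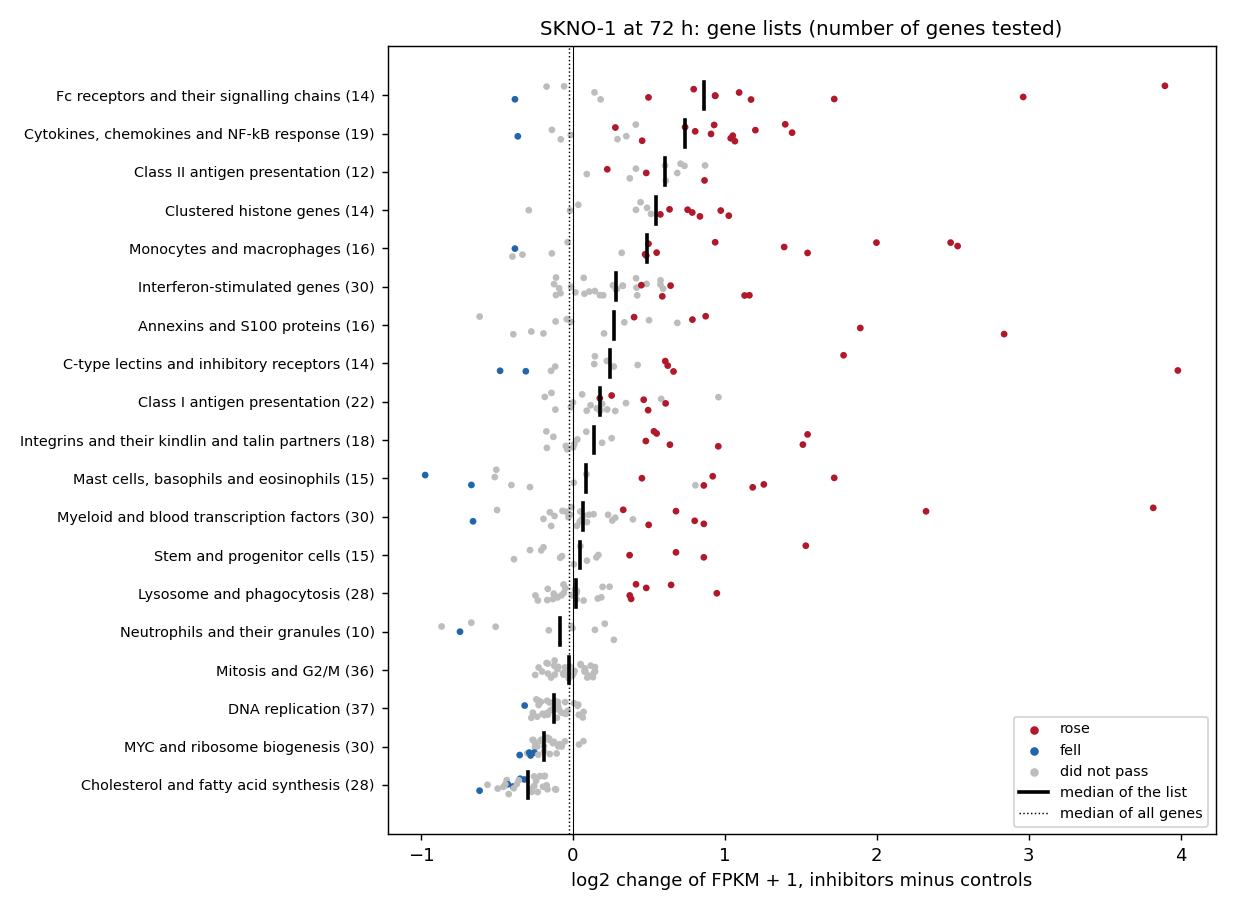
Log2 change of FPKM + 1 between inhibitors and controls (horizontal axis) for the tested members of 19 gene lists (rows, with the number tested), 1 point per gene, red where it rose, blue where it fell and grey where it did not pass. Thick bars are list medians, from 0.87 in the Fc receptor list to -0.30 in the cholesterol list, and the dotted line is the median of all genes tested (-0.03).

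Genes that fell did so by less. MFAP4 (chromosome 17, 19286754 to 19290553), a protein of the extracellular matrix, stood at 4.34 and 4.34 FPKM with DMSO, 4.75 and 2.71 FPKM with GSK690*, 1.69 and 1.12 FPKM with RN-1 and 1.05 and 0.939 FPKM with GSK690. Its highest inhibitor library was below its lowest control (log2 -1.19 ± 0.18, adjusted p = 1.22e-04). KCNH2 (chromosome 7, 150642048 to 150675403), the hERG potassium channel, stood at 13.05 and 11.2 FPKM with DMSO, 13.9 and 8.298 FPKM with GSK690*, 4.49 and 4.96 FPKM with RN-1 and 4.38 and 4.18 FPKM with GSK690. The inhibitor libraries were close together and all below the controls (log2 -1.18 ± 0.20, adjusted p = 2.69e-04). These were the 2 genes that fell by 2-fold or more. CD180, a relative of TLR4, changed by log2 -0.91, the dystrophin partner SNTB1 by -0.93, AGTRAP, a partner of the angiotensin receptor, by -0.87 and the prostaglandin E2 receptor PTGER2 by -0.85. IGLL1, the surrogate light chain of early B cells, fell from 256 ± 34.5 to 161 ± 20.4 FPKM (log2 -0.66 ± 0.16, adjusted p = 0.0100), while 13 of the 17 B and plasma cell markers did not reach the filter. IGLL1 did not pass without RN-1 replicate 1 (limma adjusted p = 0.0528).

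In the main fit, 17.9% of lipid synthesis genes and 13.3% of MYC and ribosome biogenesis genes fell, against 4.50% of all genes. In the cholesterol and fatty acid list 0 of 28 rose, 5 fell and 0 had a positive change (median log2 -0.30). With the replicate block 0 rose and 22 fell, where 1341 of all 11101 genes fell. With the CP libraries alone 0 rose and 1 fell, and scaling by the median of ratios also gave 1 that fell. HMGCS1, which starts the mevalonate path, had 107 to 74.2 FPKM (log2 -0.56, adjusted p = 0.146, and 4.76e-04 with the block in limma). Of MYC and ribosome biogenesis genes 0 of 30 rose and 4 fell (median log2 -0.19), with 0 rose and 15 fell under the block and 0 rose and 0 fell with the CP libraries alone. Of DNA replication genes 0 of 37 rose and 1 fell (median log2 -0.12), a share of 2.703% that is below that of all genes, with 0 rose and 15 fell under the block. RRP12, a ribosome assembly factor, and MCM6, a subunit of the replicative helicase, fell from 20.7 ± 2.64 to 15.99 ± 1.21 FPKM and from 59.8 ± 3.66 to 47.8 ± 2.87 FPKM. RRP12 did not pass without DMSO replicate 1, RN-1 replicate 1, GSK690* replicate 1, RN-1 replicate 2 or GSK690 replicate 2 (limma adjusted p = 0.0518 to 0.155). MCM6 did not pass without DMSO replicate 1 or RN-1 replicate 2 (limma adjusted p = 0.0651 to 0.0655). MYC itself stood at 253 and 297 FPKM with DMSO, 305 and 283 FPKM with GSK690*, 206 and 255 FPKM with RN-1 and 220.1 and 242 FPKM with GSK690, with overlapping sides (limma adjusted p = 0.0542). It passed with the block (limma adjusted p = 0.0126) and without RN-1 replicate 2 (0.0344).

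Mitotic genes did not pass: of 36 tested 0 rose and 0 fell in limma (median log2 -0.03, and 0.01 with quantile normalization), and with the block 0 rose and 4 fell. Of cyclins and cyclin-dependent kinase inhibitors 1 of 19 rose and 0 fell (median log2 -0.03), and 1 rose and 1 fell with the block. In the p53 and BCL2 family list 4 of 27 rose and 2 fell (median log2 0.04), and 2 rose and 1 fell with the CP libraries alone. Over all genes 7.17% rose and 4.50% fell in the main fit. TNFRSF10B (chromosome 8, 22877645 to 22926692), the TRAIL death receptor DR5, stood at 2.01 and 4.77 FPKM with DMSO, 3.28 and 7.05 FPKM with GSK690*, 12.4 and 19.5 FPKM with RN-1 and 13.5 and 20.01 FPKM with GSK690. All inhibitor libraries were above all controls (log2 1.78 ± 0.24, adjusted p = 2.53e-05). Markers of other lineages were mostly under the filter. Of 28 erythroid genes 6 were tested, of which 1 rose and 0 fell, and with the block 1 rose and 1 fell. Of 24 megakaryocyte genes 7 were tested and 2 rose, with ITGA2B, the platelet integrin chain, at 19.9 ± 7.88 to 38.4 ± 10.4 FPKM. ITGA2B did not pass without DMSO replicate 1, GSK690* replicate 1, RN-1 replicate 2 or GSK690 replicate 2 (limma adjusted p = 0.0896 to 0.152). Of dendritic cell markers 1 of 5 rose and 0 fell (median log2 0.03), of adherent cell markers 1 of 3 rose and 0 fell (median log2 0.20) and of B and plasma cell markers 0 of 4 rose and 1 fell (median log2 0.05), with 1 rose and 1 fell under the block.

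Each inhibitor was then set against its own control, which uses different libraries for the 2 comparisons. RN-1 against DMSO raised 342 of 11101 genes (3.08%) and lowered 64 (0.577%). GSK690 against GSK690* raised 289 of 11102 (2.60%) and lowered 34 (0.306%). With the replicate block 1053 and 1046 genes passed. 228 genes rose in both, 66.7% of the RN-1 list and 78.9% of the GSK690 list, and 19 fell in both (29.7% and 55.9%). Across 11101 genes, which are not independent replicates, the log2 changes correlated with a Pearson r of 0.860. GFI1B rose by log2 3.78 with RN-1 and 3.86 with GSK690, CLEC4A by 3.59 and 4.37, GZMA by 3.33 and 3.44, and KCNH2 fell by 1.20 and 1.16. Single libraries moved these counts: RN-1 against DMSO gave 200 genes without DMSO replicate 1, 231 without RN-1 replicate 1 and 211 without RN-1 replicate 2, and GSK690 against GSK690* gave 152 without GSK690* replicate 1, 186 if GSK690 replicate 1 was left out and 178 if GSK690 replicate 2 was.

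**Figure D4:**
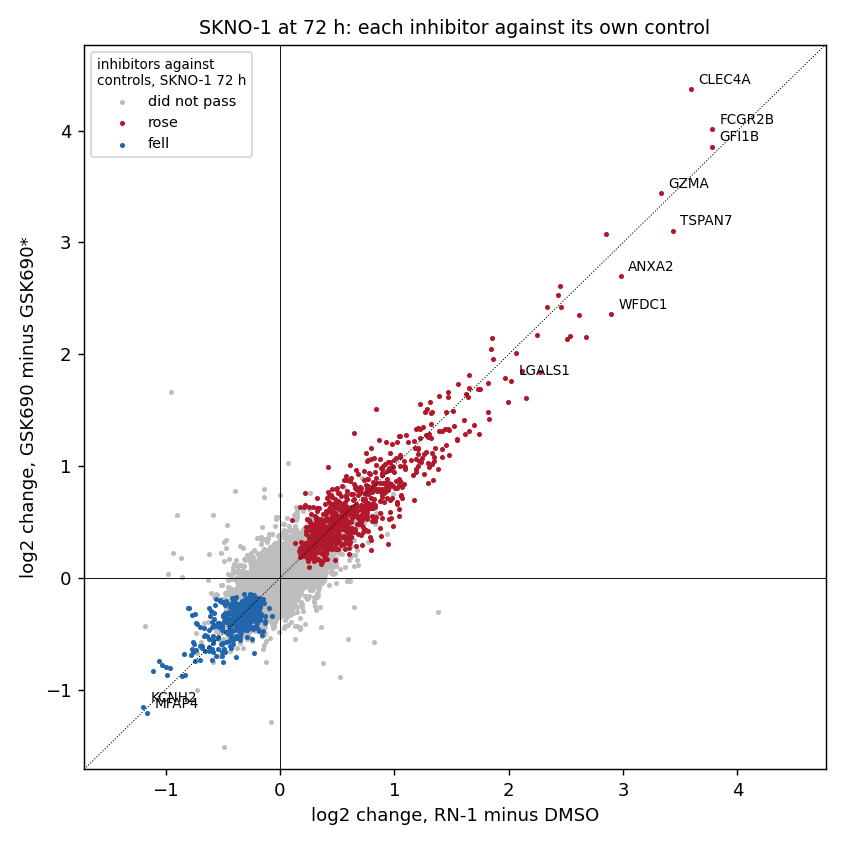
Log2 change of FPKM + 1 for GSK690 minus GSK690* (vertical axis) against RN-1 minus DMSO (horizontal axis), 1 point per gene, coloured by its call in the comparison of all inhibitor with all control libraries. The dotted line marks equal changes; the genes with the highest changes (CLEC4A, FCGR2B, GFI1B) lie high on both axes and MFAP4 and KCNH2 low on both.

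RN-1 and GSK690 were compared at the same dose and time. Of 11101 genes 0 passed (0%) in limma, with 113 at an unadjusted p under 0.05, and 3 passed without a filter on low values. The median gene had a 95% interval of ±0.283 log2 (1.22-fold), without adjustment over genes. Passing needed an adjusted p under 0.05, so differences larger than this could also be missed. For CLEC4A the difference RN-1 minus GSK690 was log2 -0.65 with an interval of -1.46 to 0.16, for GFI1B -0.29 (-1.59 to 1.01) and for GZMA -0.29 (-0.68 to 0.11). Over the 122 genes that rose by 2-fold or more the median difference was -0.14, and 11 were higher with RN-1, where all genes had a median of 0.01. Leaving out 1 library at a time kept that median between -0.189 and -0.114, and a term for the library prefix gave -0.0978.

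GSK690* likewise passed for 0 of 11102 genes (0%) against DMSO in limma, with 254 at an unadjusted p under 0.05 and 0 with the replicate block. Over the same 122 genes its median change was 0.23, and 109 were higher with GSK690* than with DMSO, where all genes had a median of 0.01. That median was 0.105 without DMSO replicate 1, 0.145 without GSK690* replicate 2 and 0.145 with a term for the library prefix. For ANXA2 the change was log2 0.40 (95% interval 0.01 to 0.78), for TSPAN7 0.56 (-0.16 to 1.28) and for LGALS1 0.45 (-0.19 to 1.096). With DMSO alone as the control 898 genes passed, and with GSK690* alone 462.

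The response at 72 h held many of the genes of the 24 h response in the same line. The difference between both responses passed for 0 of 11099 genes (0%) in limma, with 139 at an unadjusted p under 0.05, and for 2 without a filter on low values. The median 95% interval was ±0.283 log2, without adjustment over genes. The names of all 24 h libraries begin with SL, so time and prefix cannot be told apart in the levels. Each time had its own controls. Of the 796 genes that rose, 527 also rose at 24 h, 66.2% of the 72 h list and 80.1% of the 658 at 24 h. Of the 500 that fell, 209 also fell at 24 h (41.8% and 49.5% of 422). GFI1B changed by log2 2.59 at 24 h and 3.82 at 72 h, CD34 by 1.02 and 1.53, and CLC by -0.44 and -0.97. Over the 86 genes chosen at 24 h as rising by 2-fold or more, the median was 1.28 at 24 h and 1.48 at 72 h, and 73 had the higher change at 72 h. All genes had to pass the filter on the 72 h libraries, which also bears on the shared counts above. Of the 86, 24 had no 72 h control library at 1 FPKM, so their higher change at 72 h was partly fixed by the filter.

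The response differed more from that of Kasumi-1, the other t(8;21) line, at 72 h. The difference passed for 257 of 11098 genes, 107 with a higher change in SKNO-1 (0.964%) and 150 with a lower one (1.35%). With the replicate block 754 passed. Genes had to pass the filter on the SKNO-1 libraries, so genes expressed in Kasumi-1 alone were left out, also from the Kasumi-1 counts. With the filter over all 32 libraries, 138 had a higher change in SKNO-1 and 275 a lower one. Without a filter these were 195 and 340. Of the 796 genes that rose in SKNO-1, 472 rose in Kasumi-1 (59.3%, and 36.7% of the 1287 there), and 3 fell there. Of the 500 that fell, 254 fell in Kasumi-1 (50.8%, and 18.2% of 1396). GFI1B went from 0.0200 ± 0.0276 to 0.203 ± 0.137 FPKM in Kasumi-1, and the responses differed by log2 3.59 (adjusted p = 0.00253). CLEC4A went there from 0.0508 ± 0.0204 to 0.509 ± 0.335 FPKM (difference 3.48, adjusted p = 1.10e-05). WFDC1 moved in opposite directions, from 6.58 ± 1.15 to 3.21 ± 0.761 FPKM in Kasumi-1 (log2 -0.85, difference 3.48, adjusted p = 1.83e-06). TSPAN7 was already high in the Kasumi-1 control libraries of 72 h, at 83.2 ± 4.83 FPKM, and stood at 144 ± 5.62 FPKM with the inhibitors. KCNH2, which fell in SKNO-1, was near 0 in Kasumi-1, from 0.00561 ± 0.00738 to 0.0205 ± 0.0118 FPKM (difference -1.198). Without GSK690* replicate 1 that difference did not pass (limma adjusted p = 0.0595).

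Other genes responded more in Kasumi-1. KCTD12, an auxiliary subunit of GABA-B receptors, rose from 1.53 ± 0.346 to 7.36 ± 0.334 FPKM in SKNO-1 and changed from 1.26 ± 0.225 to 31.7 ± 4.57 FPKM in Kasumi-1 (difference -2.12, adjusted p = 3.74e-09). MPZL1, a cell surface glycoprotein, rose from 37.7 ± 2.23 to 61.8 ± 1.88 FPKM in SKNO-1 and changed from 0.495 ± 0.203 to 6.79 ± 1.53 FPKM in Kasumi-1 (difference -1.67). RGS18, a regulator of G protein signalling, did not pass in SKNO-1 (18.9 to 17.3 FPKM) and changed from 6.17 ± 0.635 to 19.7 ± 1.799 FPKM in Kasumi-1 (difference -1.65, adjusted p = 1.42e-07). STMN3, a stathmin that binds tubulin, and LTBP3, which binds latent TGF-beta, differed by -1.41 and -1.31. GFI1, ITGAM, CD86 and CD34 changed by log2 0.63, 1.48, 1.64 and 1.41 in Kasumi-1, and the difference from SKNO-1 did not pass for them (adjusted p = 0.206 to 0.965). Kasumi-1 was grown in 20% serum without GM-CSF and treated for 72 h by the protocol, and these differences cannot be told apart from the line. The names of all its 72 h libraries begin with CM, where 6 of the 8 of SKNO-1 begin with CP. The prefix thus differs between the lines for most libraries.

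**Figure D5:**
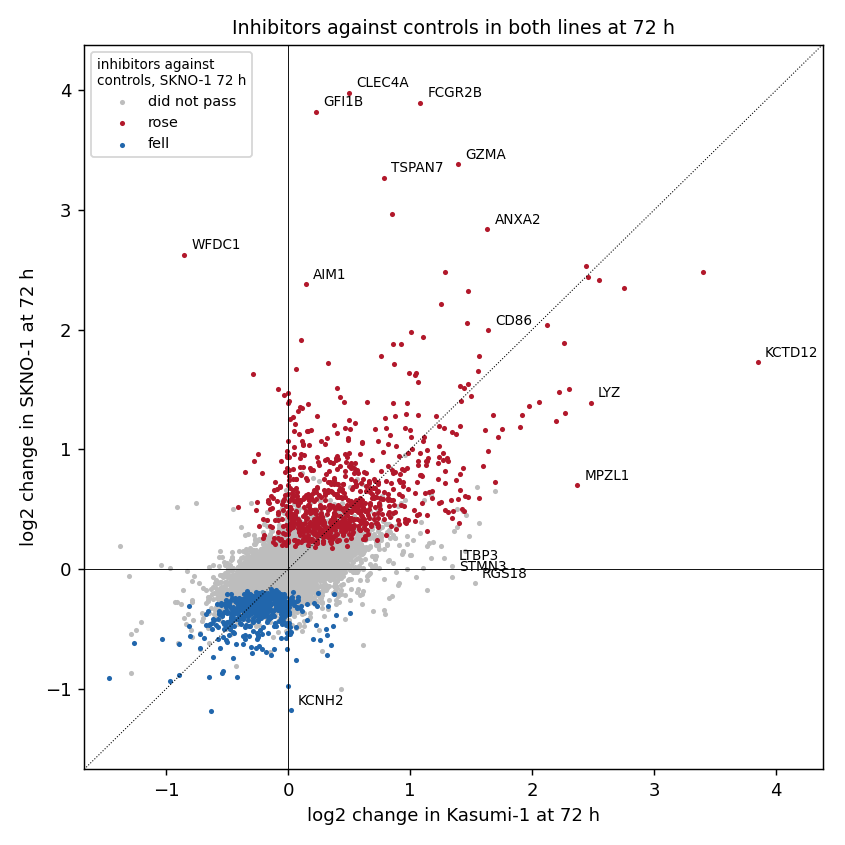
Log2 change of FPKM + 1 with the inhibitors at 72 h in SKNO-1 (vertical axis) against Kasumi-1 (horizontal axis), 1 point per gene, coloured by its call in SKNO-1. The dotted line marks equal changes; CLEC4A, GFI1B, AIM1 and WFDC1 lie far above it and KCTD12, MPZL1 and RGS18 below it.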

How the data were processed

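RNA of SKNO-1 cells was extracted with Trizol or RNeasy Plus, without a statement of which served which library. The submitters' processing notes name TopHat 1.4.1, Cufflinks and hg19, and the deposited gene values are FPKM made by the authors; strand and RNA selection are not given in the sources used here. Sample groups came from the titles.

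Log2(FPKM + 1) was fitted with limma 3.58.1 (R 4.3.3) with a variance trend and a mean for each of 16 groups over all 32 libraries, which left 16 residual degrees of freedom, and tests were 2-sided with Benjamini-Hochberg adjustment. Genes needed 1 FPKM in at least 2 of the 8 libraries. Where a library has no value it was left out for that gene. The scripts were tested on simulated data. Depth relative to DMSO replicate 1 was read from the spacing of FPKM values under 0.2.

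Deviations of same-numbered libraries from their group means correlated with r of 0.142 to 0.710 over 6 pairs of groups. The highest r was that of DMSO with RN-1. In both of these replicate 1 is named CM and replicate 2 CP, so pairing and prefix cannot be told apart there. GSK690 with GSK690*, all named CP, had an r of 0.585 and DMSO with GSK690* the lowest. The labels do not pair the replicates. The alternatives were a replicate block, a library prefix term, other filters, pseudocounts, scalings and controls, and fits on the 8 libraries. Others left out each library in turn, or the 2 SKNO-1 libraries of 72 h named CM (CP libraries alone). For genes listed as not passing without single libraries, other alternatives in which they did not pass are not all listed.

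Genes named are the 20 highest and 15 lowest changes whose sides did not overlap, up to 3 per list, and chosen genes of interest; not all are printed, and some genes are not reported here. The libraries, gene lists and rules were chosen with earlier results of these data known, and other list members were named after their values were seen. Of the list genes 834 were matched by symbol, 2 by gene ID and 4 not at all. Promoters are RefSeq's on GRCh38.p14, and no position was moved between builds.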

Additional observations from a re-analysis of the deposited data

Results flagged for a closer look

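In 11 of 196 groups of 4 libraries, for the genes named here, 1 library stood apart from the other 3 by Dixon's test at the 95% level, which chance alone reaches in about 1 group of 20. Among controls these were CSF2RB, the common chain of the GM-CSF receptor, at 20.1 FPKM in DMSO replicate 2 and MPO at 1516 FPKM in DMSO replicate 1. GSK690* replicate 1 stood apart in IL18 (0.718 FPKM), KIT (69.8 FPKM) and LGALS1 (54.5 FPKM). Among inhibitor libraries GSK690 replicate 1 stood apart in GATA2 (119 FPKM) and KIT (61.6 FPKM), GSK690 replicate 2 in FCGR1A (34.2 FPKM), and RN-1 replicate 2 in RUNX1T1 (31.04 FPKM) and SNTB1 (6.09 FPKM). EVI5 stood apart at 6.07 FPKM in RN-1 replicate 1.

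The response to the inhibitors at 72 h differed between SKNO-1 and Kasumi-1 by limma's test of the difference for 26 of the genes named here. The log2 change in SKNO-1 was the higher in GFI1B (3.59), CLEC4A (3.48), WFDC1 (3.48), FCGR2B (2.81), TSPAN7 (2.48), AIM1 (2.24), FCGR2C (2.11), GZMA (1.99), ANXA2 (1.21), SCPEP1 (1.19), LILRA2 (1.02), FCGR1A (0.93) and RFX5 (0.35). It was the lower in KCTD12 (-2.12), MPZL1 (-1.67), RGS18 (-1.65), STMN3 (-1.41), LTBP3 (-1.31), KCNH2 (-1.198), LYZ (-1.09), LY96 (-0.91), CTSS (-0.87), IL18 (-0.87), TYROBP (-0.77), GLMN (-0.61) and CSF2RA (-0.47). Leaving out single libraries ended the call for CSF2RA, LILRA2, KCNH2, LY96, LYZ and TYROBP.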

How the results depend on the processing

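The replicate block raised the count of genes past the threshold to 2673 for inhibitors against controls, 1053 for RN-1 against DMSO, 1046 for GSK690 against GSK690* and 754 for SKNO-1 minus Kasumi-1. With the library prefix added to the block, a choice made after seeing the data, the first 3 were 3036, 1254 and 1315. On the 8 libraries alone they were 426, 158 and 126. Both the spread and its residual degrees of freedom differ in that fit, and the part of each was not tested. Inhibitors against controls gave 807 genes as 2 groups of 4, 616 with the CP libraries alone and 462 against GSK690* alone. Without a filter on low values RN-1 against GSK690 gave 3 genes, 72 h minus 24 h gave 2 and SKNO-1 minus Kasumi-1 gave 535, and the last gave 413 with the filter over all 32 libraries; the cause was not tested.

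Leaving out 1 library at a time gave 855 to 1600 genes for inhibitors against controls, 200 to 474 for RN-1 against DMSO and 152 to 427 for GSK690 against GSK690*. Of 79 genes named here that passed, 50 passed under each of 21 alternatives and 62 without any 1 library, and 0 turned sign. The block ended no call among them, and the list counts that it moved by over 1.5 times are given beside the lists. With the CP libraries alone 19 of the 79 did not pass, and against GSK690* alone 23 did not. Of 35 list medians, 22 kept 1 sign under these alternatives. Absolute depth is unknown, so no counting interval can be given.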

Other observations

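Other lists held few changes. Of genes of the GM-CSF receptor, STAT5 and its feedback targets 1 of 20 rose and 1 fell (median log2 -0.03), and with the replicate block 4 rose and 3 fell. SOCS2, a feedback inhibitor of cytokine signals, rose (log2 0.39) and IL2RA, the alpha chain of the interleukin 2 receptor, fell (log2 -0.57). IL2RA did not pass on the 8 libraries alone (0.104) or against GSK690* alone (0.0948), by limma's adjusted p. SOCS2 did not pass without DMSO replicate 1, GSK690* replicate 1, RN-1 replicate 2 or GSK690 replicate 2 (limma adjusted p = 0.172 to 0.207). In the glycolysis and hypoxia list 2 of 25 rose and 1 fell (median log2 -0.05), with 5 rose and 5 fell under the replicate block. PFKM, a phosphofructokinase, and DDIT4, a stress-induced inhibitor of mTORC1, rose by log2 0.80 and 0.98, and the glucose transporter SLC2A1 changed by -0.39. DDIT4 did not pass without DMSO replicate 1, with the CP libraries alone, or on the 8 libraries alone (limma adjusted p = 0.0589 for the last). 

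Of ATF4 and unfolded protein response genes 0 of 23 rose and 1 fell (median log2 -0.17), with 0 rose and 8 fell under the block. The gene that fell was the cystine transporter SLC7A11 (log2 -0.53). Against GSK690* alone its change was log2 -0.22 and did not pass (limma adjusted p = 0.522). Nor did it pass on the 8 libraries alone (0.160) or with a pseudocount of 0.1 (0.115). SLC7A11 did not pass without RN-1 replicate 2 or GSK690 replicate 2 (limma adjusted p = 0.107 to 0.111). In the iron and metallothionein list 1 of 19 rose and 2 fell (median log2 -0.11), with 1 rose and 6 fell under the block. The iron transporter SLC11A2 rose (log2 0.48) and ACO1, which also acts as an iron sensor, fell (log2 -0.27).

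Some genes that rose were neighbours. Among tested genes in hg19 order, 21 runs of 3 or more in a row rose, the longest of 6, and 5 runs fell, the longest of 3. One run lay around GFI1 on chromosome 1 (92711958 to 93257961): GLMN, RPAP2, GFI1 and EVI5 rose by log2 0.46, 0.37, 0.50 and 0.24. EVI5 did not pass without DMSO replicate 1, RN-1 replicate 1, GSK690* replicate 1, GSK690 replicate 1, DMSO replicate 2 or GSK690 replicate 2 (limma adjusted p = 0.0664 to 0.174). RPAP2 did not pass on the 8 libraries alone (0.0633), by limma's adjusted p. Another held FCGR2A, HSPA6, FCGR2B, FCGR2C and FCRLA on chromosome 1 (161475219 to 161684142). The tryptases rose with CACNA1H on chromosome 16 (1203240 to 1308532), and MS4A4E, MS4A4A and MS4A7 on chromosome 11 (59968725 to 60163424). Several runs hold near-identical copies, whose reads may be shared, and the number of runs that arises without any link between neighbours was not tested.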
